A study of Caenorhabditis elegans with 8 samples.

Results

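The 79 genes described here are named as genes for proteins of the cytosolic ribosome of the nematode Caenorhabditis elegans. They were chosen by name alone, as genes named rpl, rps or rla followed by a number in the deposited sheet of replicate 2 that could also be found in the sheet of replicate 1, and they are 79 of the 18287 genes present in both sheets. By name, 45 belong to the large subunit, 31 to the small subunit and 3 to the acidic stalk of the large subunit. Among the 45 is rpl-24.2, whose RefSeq name is that of an assembly factor, as described below. RNA came from whole worms of the wild-type strain N2 and of strain MT15501, a mutant of the microRNA gene mir-83. Both strains were grown at 20 °C on plates with FuDR, a drug that stops progeny from developing and that every group received, and were collected at adult day 4 or day 12. Each combination of strain and age is represented by 2 libraries, and nothing in the labels says whether these came from separate cultures, so all p-values measure only the spread between libraries, which may be technical. The labels name no allele, so the comparison is that of 1 mutant strain with N2. The study asked how loss of this microRNA affects gene expression at different adult ages.

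A ribosome consists of ribosomal RNA and a set of proteins that each subunit needs in equal numbers, and the genes for these proteins are among the most highly transcribed of a growing cell. The stalk proteins recruit the elongation factors that drive each step of protein synthesis. In worms, germ line and intestine make large amounts of ribosomes, and lowering the amount of a ribosomal protein by RNA interference is known to lengthen adult life. Some ribosomal protein genes have a second copy elsewhere in the genome, and in C. elegans the autosomal rpl-11.1 is known for its role in the germ line while its copy rpl-11.2 lies on the X chromosome.

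The libraries held between 20270542 and 41181094 reads. Both mir-83 day 4 libraries had scaling factors (TMM, which equalises the bulk of genes between libraries) of 0.644 and 0.596, against 1.078 to 1.231 in the other 6. In those same 2 libraries, summed marker levels as CPM (reads of a gene scaled to a common library total, here with TMM factors) of the intestine were 111400 and 149500 against 1546 to 23920 elsewhere, those of muscle 6608 and 5222 against 241 to 1144, and those of the oocyte 17650 and 20610 against 4893 to 9734. Hypodermis markers summed to 1333 and 1468 CPM in these libraries, against 8.11 to 333.6 elsewhere. Early embryo markers summed to 1.59 and 2.20 CPM there against 11.18 to 39.31 elsewhere, and 7 of 8 of them had at most 3 reads in replicate 1 and 3 of 8 in replicate 2. In the day 4 comparison of the genotypes described below, 9 of 12 intestine, 6 of 8 muscle, 5 of 10 germ line, 2 of 10 oocyte and 2 of 7 neuron markers rose, 4 of 8 early embryo markers fell, and no marker of hypodermis (7) or sperm (29) passed. Among all genes tested, 4.42% rose and 2.63% fell. In whole worms, fewer cells of a type and less RNA per cell cannot be told apart, and the part of these markers in the results below was not tested. In the labels, the 2 strains of replicate 1 share a sequencing run code that differs between the ages, so run and age cannot be told apart in that replicate.

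Ribosomal protein genes took a large and variable share of the reads. The share was 14.81% and 19.71% in N2 day 4 (replicates 1 and 2), 20.49% and 23.38% in mir-83 day 4, 11.36% and 16.06% in N2 day 12 and 14.15% and 14.13% in mir-83 day 12. The 2 mir-83 day 4 libraries were the highest of all 8, and the 2 genotypes overlapped at day 12. As means, the share was 21.94% ± 2.04 (SD, n = 2) in mir-83 day 4, 17.26% ± 3.46 (SD, n = 2) in N2 day 4, 13.71% ± 3.32 (SD, n = 2) in N2 day 12 and 14.14% ± 0.01 (SD, n = 2) in mir-83 day 12. Between 56 and 64 of the 100 genes with the most reads were members in every library. After TMM scaling the members summed to 318229 and 392163 CPM in mir-83 day 4, and to between 98218 and 182942 in the other 6 libraries. The gap is wider on this scale because the TMM factors of the 2 libraries enter it, and the shares of reads differed by less.

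**Figure D1:**
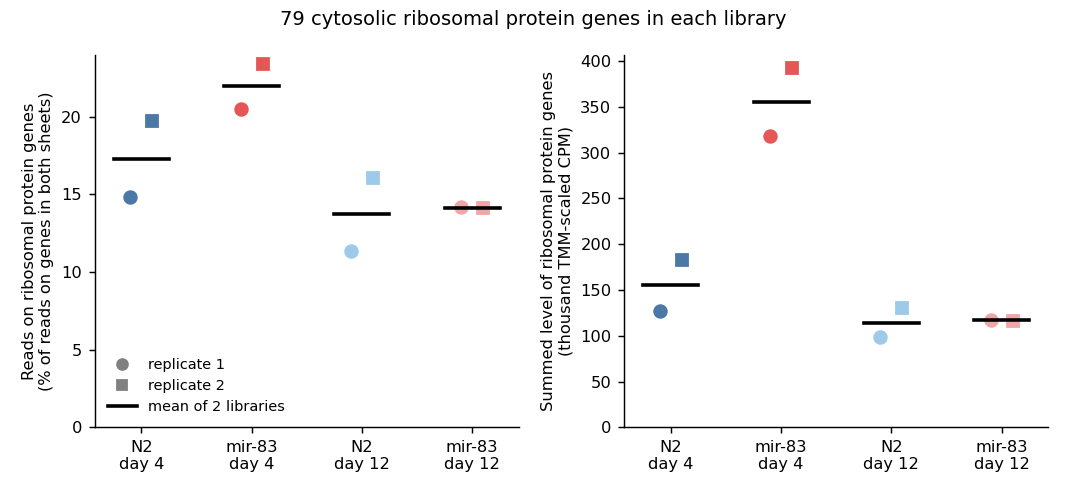
Share of reads on the 79 ribosomal protein genes (left, in % of reads on genes in both sheets) and their summed TMM-scaled level (right, CPM axis as labelled) in each library; circles are replicate 1, squares replicate 2 and bars the mean of 2. The 2 mir-83 day 4 libraries, at 20.49% and 23.38%, are the highest on both scales, and the distance to N2 day 4 is wider on the TMM scale.

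Per kilobase of exon, the scale on which genes can be compared, most members lay within a band of 2-fold to either side of their library's median. The median member stood between 2122 and 3893 TMM-scaled CPM per kilobase in the 6 libraries other than mir-83 day 4, and at 6251 and 8264 in those 2. Between 57 and 69 of the 79 members lay within 2-fold of the median of their library. Leaving aside rpl-42, rpl-24.2 and rpl-37, the highest member stood at 6.9 to 48.7 times the lowest, depending on the library. The highest were the small subunit genes rps-25 and rps-21 and the large subunit gene rpl-36. For rps-25 the level per kilobase was, at day 4, 8162 and 12440 in N2 and 14820 and 18960 in mir-83, and at day 12, 6539 and 7706 in N2 and 8617 and 8366 in mir-83. Small subunit genes stood slightly above large subunit genes, with a ratio of their medians per kilobase between 1.13 and 1.29 in all 8 libraries, so the order of the subunits was the same in every library.

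Far below the band by their mean over all libraries lay rpl-42, rpl-24.2 and rpl-37. In mir-83 day 12 replicate 1, rpl-25.1 (176.9 per kilobase) also lay below rpl-24.2 (318.5) and rpl-37 (256). The gene called rpl-24.2 is annotated in RefSeq as rsl-24D1, the name of a factor whose relative in yeast acts in assembly of the large subunit and is no part of the finished ribosome, and its level per kilobase was 138 to 325. The gene rpl-42 had almost no reads: 14 and 7 in N2 day 4, none in either mir-83 day 4 library, and 71 and 2 in mir-83 day 12. For rpl-37, named rpl-37.2 in RefSeq, the TMM-scaled level was 68.9 to 320 CPM in the 4 libraries of replicate 1 and 0.689 to 2.90 CPM in the 4 of replicate 2. The like-named gene rpl-37.1, outside the name rule, had 1420 to 4311 CPM in all 8 libraries. Reads of these near-identical copies cannot be told apart with certainty, and the fold changes of rpl-37 combine 2 sheets that put it at very different levels.

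**Figure D2:**
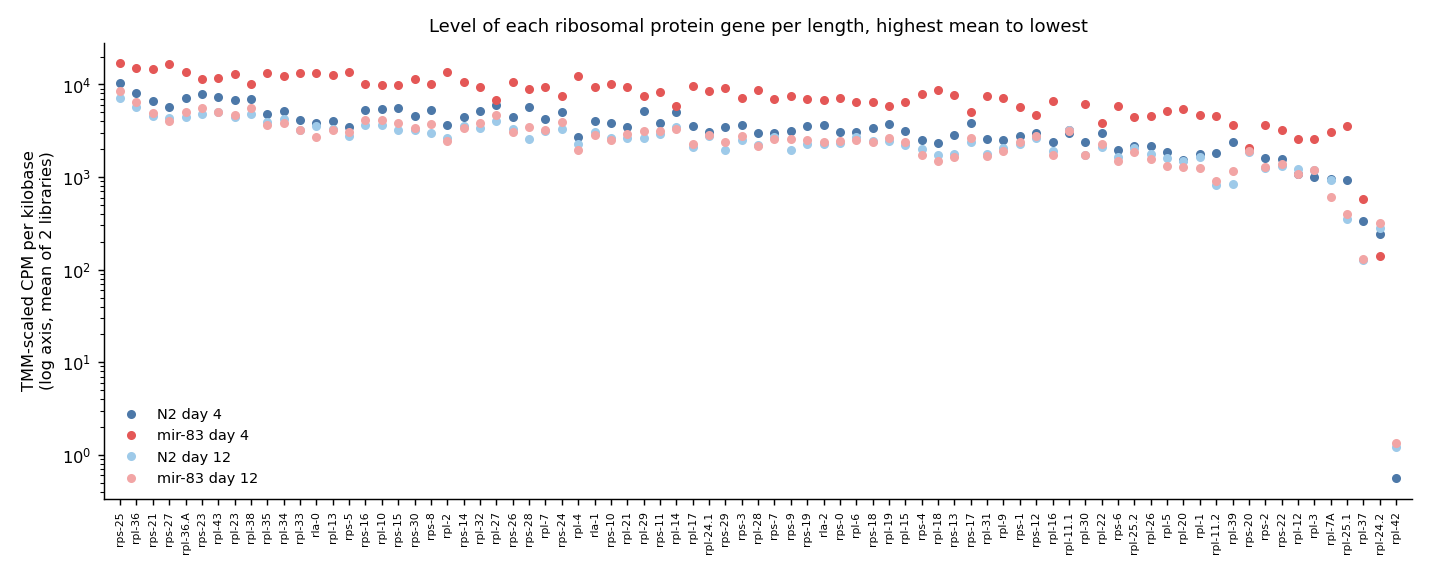
Level of each of the 79 genes per kilobase of exon (TMM-scaled CPM per kilobase, log axis), as the mean of 2 libraries per group, ordered from the highest mean (rps-25) to the lowest (rpl-42). The mir-83 day 4 points lie above the other groups for most genes but at the bottom for rpl-24.2, and rpl-42 has no mir-83 day 4 point because both libraries held 0 reads.

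In day 4 adults, ribosomal protein genes were higher in mir-83 than in N2. With edgeR's quasi-likelihood test and an adjusted p under 0.05, 37 of the 79 (46.8%) rose and 0 fell, where 4.42% of all 15843 genes tested rose and 2.63% fell (7.05% in either direction). The members' median log2 fold change was 1.19, against -0.14 for all genes tested, and 77 of 79 lay above 0. In replicate 1 alone the median was 1.26 and in replicate 2 alone it was 1.07. The interquartile range of the members was 0.61 on the log2 scale, against 1.46 for all genes, which include genes with few reads. Of the 79 members, 55 lay within 0.5 of their median. Those above 0 ran from 0.09 (rps-20) to 2.21 (rpl-4), so the size of the shift differed between members. The 2 mir-83 libraries stood above both N2 libraries for 68 members and below both for 2, where 29.4% and 35.5% of all genes did so.

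The stalk gene rla-0, which encodes the P0 protein that holds the other stalk proteins, had 2993 and 4916 TMM-scaled CPM in N2 day 4 and 13220 and 14340 in mir-83 day 4. Its groups did not overlap, and the log2 fold change was 1.84 ± 0.29 (SE; edgeR adjusted p = 0.0221). For rla-1, an acidic stalk protein, the change was 1.22 ± 0.26 (edgeR adjusted p = 0.0352). The other acidic stalk gene among the members, rla-2, did not pass, at 0.92 ± 0.25 (edgeR adjusted p = 0.0615), with 1356 and 1903 CPM in N2 and 2791 and 3333 in mir-83. The gene rplp-2.1, a stalk gene by name but outside the name rule, was at 1.03 ± 0.27 (edgeR adjusted p = 0.0594). The large subunit gene rpl-27A, also outside that rule, was at 0.76 ± 0.27 (0.117).

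Among large subunit genes, 21 of 45 rose, with a median of 1.25. The largest difference belonged to rpl-4, whose protein lines the exit tunnel of the ribosome. Its levels were 2201 and 3921 CPM in N2 day 4 and 12340 and 15350 in mir-83 day 4, a log2 fold change of 2.21 ± 0.31 (edgeR adjusted p = 0.0211, the smallest value reached by any gene in this comparison). The level of rpl-2, whose protein lies near the peptidyl transferase centre, was 2145 and 4103 CPM in N2 and 9965 and 13350 in mir-83. Neither gene's groups overlapped, and the log2 fold changes of rpl-2 and rpl-18 were 1.94 ± 0.30 and 1.91 ± 0.28. For rpl-18 the levels were 1119 and 1970 CPM in N2 and 5275 and 5994 in mir-83. The genes rpl-33 (1.70), rpl-7A (1.68), rpl-13 (1.63), rpl-28 (1.57) and rpl-7 (1.15) also rose. Not past the threshold were rpl-24.1 at 1.47 ± 0.38 (edgeR adjusted p = 0.0581), rpl-3 at 1.35 ± 0.53 (0.153), rpl-12 at 1.25 ± 0.36 (0.0722) and rpl-10 at 0.89 ± 0.26 (0.075). Of these, rpl-3 and rpl-12 are known in C. elegans for splice forms that are removed by nonsense-mediated decay.

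Of the 31 small subunit genes, 14 rose, with a median of 1.16 and none below 0. The gene rps-4 had 1543 and 2724 CPM in N2 day 4 and 5880 and 7523 in mir-83 day 4, without overlap, for a log2 fold change of 1.69 ± 0.27 (edgeR adjusted p = 0.0223). Levels of rps-6, whose protein is the substrate of S6 kinase in growth signalling, were 990.6 and 2234 CPM in N2 and 4305 and 5280 in mir-83. Its log2 fold change was 1.62 ± 0.37 (edgeR adjusted p = 0.0424). For rps-27 the change was 1.58 ± 0.28 (0.0261), and for rps-21 it was 1.16 ± 0.27 (0.0434). The most abundant member per length, rps-25, did not pass, at 0.73 ± 0.28 (edgeR adjusted p = 0.145), with 3265 and 4976 CPM in N2 and 5929 and 7585 in mir-83, without overlap.

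Some members gave values close to those of N2. The log2 fold change was 0.11 ± 0.36 for rpl-11.1, 0.09 ± 0.28 for rps-20, 0.19 ± 0.26 for rpl-14 and 0.19 ± 0.27 for rpl-27, none past the threshold. Levels of rpl-11.1 were 1718 and 2206 CPM in N2 day 4 and 1804 and 2434 in mir-83 day 4, so that the groups overlapped. Below 0 stood rpl-24.2, with 149.2 and 133.6 CPM in N2 and 80.7 and 84.3 in mir-83, at -0.78 ± 0.22 (edgeR adjusted p = 0.0724). Its groups did not overlap, although the difference did not pass. For rpl-42, with 0 reads in mir-83, a bound of 3 counts over the group would put its level 4.29-fold below the 0.366 CPM of N2. The bound covers counting error in mir-83 only. It leaves out the error of the few N2 reads and the spread between libraries, and the gene did not pass the test. With rpl-42 at that bound, the members' median stayed at 1.19.

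**Figure D3:**
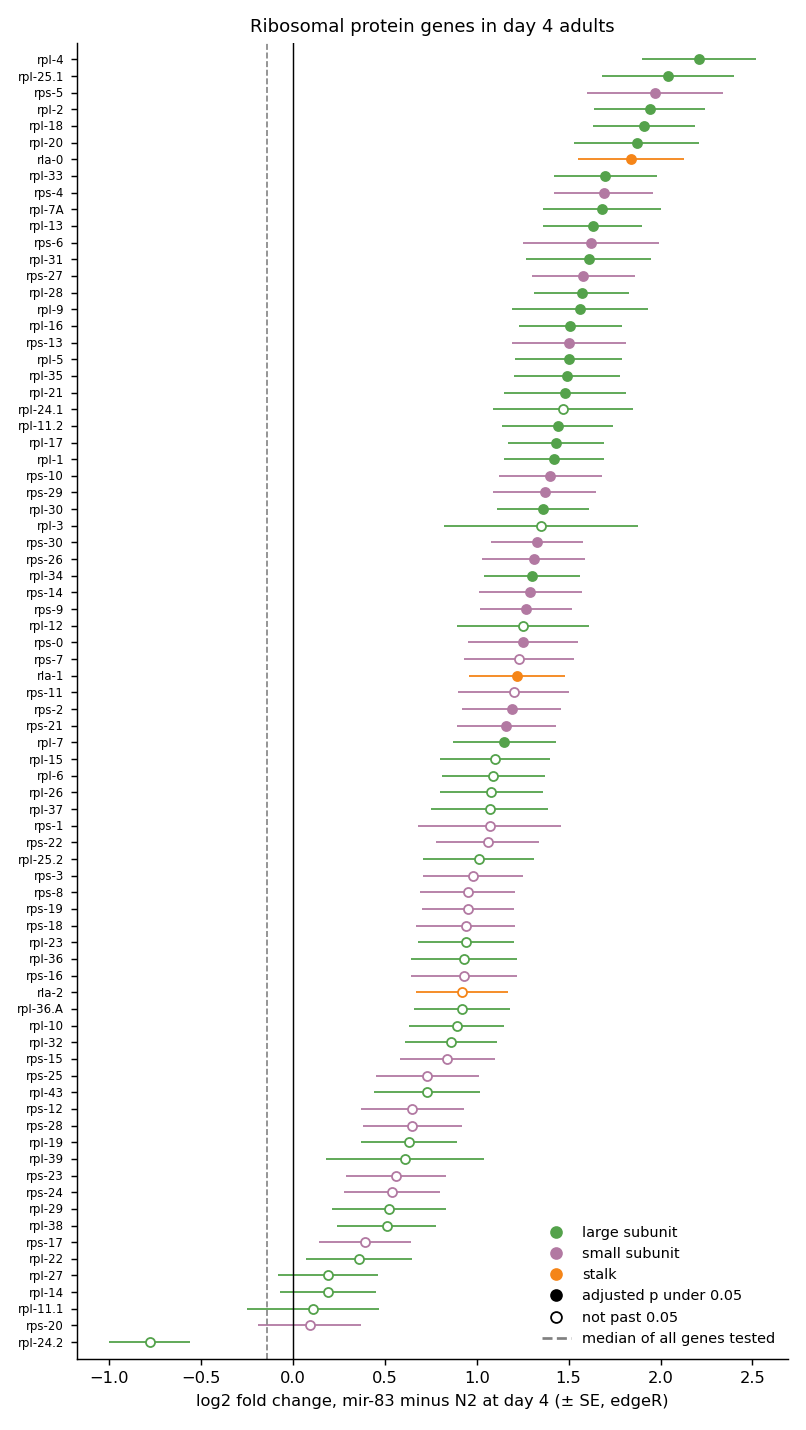
Log2 fold change (± SE from edgeR) of each member between mir-83 and N2 at day 4, coloured by subunit and filled where the adjusted p was under 0.05; rpl-42 is not drawn. All members except rpl-24.2 lie above the dashed median of all genes tested (-0.14); on plain library sizes 19 of 79 lie below 0.

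The size of the day 4 difference depended on the scaling. On plain library sizes the median of all genes moved to -0.99 and that of the members to 0.35, with 60 members above 0 and 19 below; 9 rose and rpl-24.2 fell (-1.63, edgeR adjusted p = 0.00578), where 210 of all 15843 genes rose and 3819 fell. On that scale the mir-83 libraries stood above both N2 libraries for 32 members and below both for 10, where 9.88% and 64.5% of all genes did so. The members' distance from the median of all genes was 1.33 or 1.34 under all 4 scalings tried, which all centre the same fold changes differently. The calls also rest on few libraries. Without any 1 of the 4 day 4 libraries the calls were lost among members and nearly so over all genes. The members' median then lay between 1.06 and 1.28. Without the replicate block 1 member passed (rpl-4), where 2.03% of all genes did, and the members' median was 1.15.

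In day 12 adults no genotype difference was detectable. With edgeR, 0 of 79 members passed the threshold and 0 had an unadjusted p under 0.05; DESeq2 also called 0. Over all genes, 0% passed and 306 had an unadjusted p under 0.05. The members' median was 0.04, and it was 0.27 in replicate 1 and -0.18 in replicate 2, so the direction differed between replicates. For rpl-4 the levels were 2375 and 2755 CPM in N2 day 12 and 2210 and 2214 in mir-83 day 12, a log2 fold change of -0.20 ± 0.30. For rla-0 they were 3037 and 4354 CPM in N2 and 2681 and 2939 in mir-83, at -0.37 ± 0.29. The mir-83 libraries stood below both N2 libraries for either gene, and neither passed the test. The smallest p belonged to rpl-7A, a large subunit protein, at -0.63 ± 0.32 (edgeR adjusted p = 1), with 988.8 and 613.1 CPM in N2 and 602 and 430.2 in mir-83. Among the positive values the smallest p was that of rps-9, at 0.40 ± 0.25. Libraries of mir-83 stood above both N2 libraries for 6 members and below both for 5, where 5.52% and 8.22% of all genes did so.

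With age in N2, no member passed the threshold, and most values were negative. The median log2 fold change from day 4 to day 12 was -0.43, against -0.09 for all genes tested, and 74 of 79 members lay below 0. With edgeR, 0 members were called where 2.11% of all genes rose and 2.4% fell (4.51% in either direction). At an unadjusted p below 0.05 there were 20 members (25.3%), where 28.1% of all genes had one. By DESeq2 5 members (6.3%) were called, all lower, where 20.3% of all genes were called, so neither share stood above that of all genes. In the same comparison 8 of 12 intestine markers fell (median -2.03), 2 of 8 muscle markers fell and 2 of 10 germ line markers rose (median 1.06). No oocyte, early embryo, sperm, neuron or hypodermis marker passed. The part of these markers in the members' values was not tested. The day 12 libraries stood below both day 4 libraries for 29 members and above both for 1, where 30.1% and 29.6% of all genes did so. The smallest p was that of rps-28, a short small subunit gene, with 1678 and 1178 CPM at day 4 and 629.2 and 681.8 at day 12. Its ages did not overlap, and its change was -1.09 ± 0.28 (edgeR adjusted p = 0.0631). The X-linked genes rpl-25.1 and rpl-11.2 followed, at -1.34 ± 0.35 (edgeR adjusted p = 0.0653) and -1.08 ± 0.30 (0.0738). The stalk gene rla-0 was at -0.09 ± 0.28 and rpl-4 at a level of 2375 and 2755 CPM against 2201 and 3921 at day 4. For rpl-24.2 the levels were 149.2 and 133.6 CPM at day 4 and 157.7 and 167.1 at day 12, which did not pass.

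With age in mir-83, ribosomal protein genes fell. Of the 79 members, 69 fell and 1 rose, where 15.2% of all genes fell and 12.8% rose (27.9% in either direction). The median was -1.50, against 0.05 for all genes tested, and it was -1.43 in replicate 1 and -1.70 in replicate 2. All 3 stalk genes, 38 of 45 large subunit genes and 28 of 31 small subunit genes fell. Day 12 libraries stood below both day 4 libraries for 74 members and above both for 2, where 32.7% and 33.8% of all genes did so. In the same comparison 12 of 12 intestine markers fell (median -5.39), as did 8 of 8 muscle markers (median -4.50) and 5 of 10 oocyte markers, while 6 of 8 early embryo markers rose. Of 10 germ line markers, 2 rose and 4 fell (median -0.28). Of the neuron and hypodermis markers, 4 of 7 and 3 of 7 fell, and no sperm marker (29) passed. The part of these markers in the members' fall was not tested. This comparison shares its day 4 libraries with the day 4 genotype comparison, so the genes that lead both are not separate evidence.

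The largest fall was that of rpl-25.1, an X-linked large subunit gene, from 1469 and 2064 CPM at day 4 to 87.4 and 310.9 at day 12. Its log2 fold change was -3.37 ± 0.38 (edgeR adjusted p = 0.00255), and its ages did not overlap, although the 2 day 12 libraries lay far apart. For rpl-4 the levels went from 12340 and 15350 CPM to 2210 and 2214, a change of -2.63 ± 0.31 (edgeR adjusted p = 0.00269). Levels of rpl-18 went from 5275 and 5994 CPM to 856.9 and 1117, or -2.53 ± 0.29. The genes rpl-2 (-2.44), rpl-11.2 (-2.37), rps-4 (-2.22), rpl-17 (-2.08), rpl-28 (-2.04) and rpl-30 (-1.82) completed the 10 with the smallest p together with rla-0 (-2.29). The stalk genes rla-1 and rla-2 changed by -1.72 ± 0.26 and -1.52 ± 0.25. For rps-6 the change was -1.96 ± 0.38 (edgeR adjusted p = 0.00975), and for rps-25 it was -0.97 ± 0.28 (0.0359).

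Against this direction, rpl-24.2 rose from 80.7 and 84.3 CPM to 185.7 and 189.5, a log2 fold change of 1.18 ± 0.23 (edgeR adjusted p = 0.00954). Its ages did not overlap in mir-83, and the day 12 level was close to that of N2 day 12, at 157.7 and 167.1 CPM. The genes that did not pass included rpl-11.1 at 0.00 ± 0.37, rps-20 at -0.18 ± 0.28, rpl-27 at -0.50 ± 0.27, rpl-14 at -0.76 ± 0.26 and rpl-3 at -1.16 ± 0.54. For rpl-42, which had no reads at day 4, the 71 and 2 reads at day 12 came almost wholly from 1 library, there was no call, and no fold is given. On plain library sizes the median of all genes moved to 1.01 and that of the members to -0.54, with 29 members lower and 2 higher, where 976 of all 15843 genes fell and 5913 rose; day 12 then stood below day 4 in all libraries for 57 members and above for 4, against 15.8% and 56.3% of all genes. Without either mir-83 day 4 library, far fewer calls were made, among the members and over all genes. The members' median was -1.51 in both of these fits.

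Whether the genotype difference changed with age was tested as an interaction. The members' median was -1.10, against 0.08 for all genes, and 76 of 79 lay below 0. With edgeR 0 members passed, 0% of all genes did, and 49 members had an unadjusted p under 0.05, as did 2911 of all 15843 genes (18.4%). DESeq2 called 21 members and 8.36% of all genes. The smallest adjusted p among members was 0.0584, shared by rpl-4 (-2.41 ± 0.42), rla-0 (-2.21 ± 0.41) and rpl-18 (-2.12 ± 0.39). The genotype effect was thus past the threshold at day 4 and not at day 12, while its difference between the ages was not past it.

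**Figure D4:**
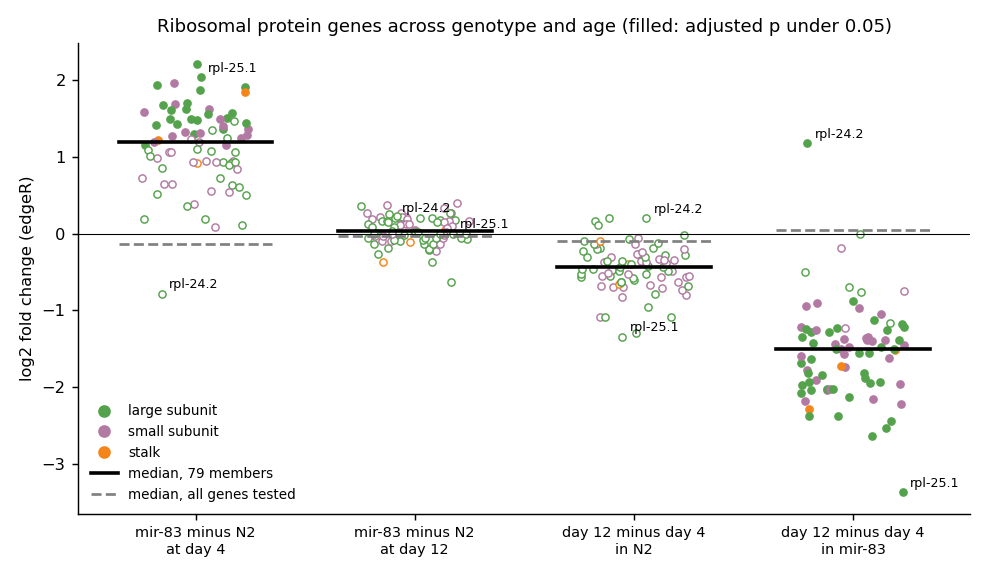
Log2 fold changes of 78 members in 4 comparisons (rpl-42 is not drawn), filled where the edgeR adjusted p was under 0.05; black bars are medians of the 79 members and dashed bars medians of all genes tested. Members lie near 1.19 at day 4 and near -1.50 with age in mir-83, and near 0 at day 12; rpl-24.2 lies on the opposite side from nearly all others in both comparisons with calls, and comparisons that use the same libraries are not independent.

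Both X-linked members belong to pairs with an autosomal copy, and the balance within the pairs varied between libraries. The 2 genes are rpl-11.2 (X:2241738-2242618, minus strand, WBcel235) with its copy rpl-11.1 (V:3585312-3586064), and rpl-25.1 (X:4715178-4715796, plus strand) with rpl-25.2 (I:8329062-8329647). Of the reads on the first pair, rpl-11.2 took, at day 4, 31.34% and 45.85% in N2 and 61.94% and 60.76% in mir-83, and at day 12, 20.91% and 22.8% in N2 and 17.16% and 33.59% in mir-83. In the second pair, rpl-25.1 took, at day 4, 24.35% and 33.68% in N2 and 45.79% and 43.93% in mir-83, and at day 12, 15.24% and 14.46% in N2 and 8.33% and 25.73% in mir-83. In both pairs the mir-83 day 4 libraries held the highest shares and the other groups followed, with 1 mir-83 day 12 library above 1 N2 day 4 library. The 95% Wilson intervals, which cover counting error only, were at most about 1 percentage point wide, such as 23.84% to 24.85% for the share of rpl-25.1 in N2 day 4 replicate 1, so counting error was small beside the spread between libraries.

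The ratio within a pair does not depend on library scaling. Between day 4 and day 12, with genotypes pooled, the mean log2 ratio of X-linked to autosomal copy differed by 1.72 for rpl-11 (-0.01 ± 0.86 against -1.73 ± 0.54, SD, n = 4 each; exact two-sided permutation p = 0.0571, adjusted over 4 tests p = 0.1143) and by 1.71 for rpl-25 (-0.80 ± 0.64 against -2.51 ± 0.79; exact permutation p = 0.0571, adjusted p = 0.1143). Between the genotypes, with ages pooled, the difference was 0.78 (exact permutation p = 0.3714) and 0.52 (exact permutation p = 0.6). The smallest p this design allows is 0.0286, and none of the 4 passed. Leaving out 1 library moved the genotype difference of rpl-11 to between 0.39 and 1.38, and that of rpl-25 to between 0.13 and 1.20. In both pairs the low end came from dropping the first mir-83 library of day 4 and the high end from dropping the first of day 12. Paired within genotype and replicate, the ratio was higher at day 4 in 4 of 4 pairs for both genes (exact paired permutation p = 0.125, the smallest that 4 pairs allow). Paired within age and replicate, it was higher in mir-83 in 3 of 4 pairs for both (exact paired permutation p = 0.25 for rpl-11 and 0.375 for rpl-25). In the day 4 genotype comparison, rpl-11.2 rose by 1.44 ± 0.30 (edgeR adjusted p = 0.0335) and rpl-25.1 by 2.04 ± 0.36 (0.0257), while rpl-11.1 and rpl-25.2, at 0.11 ± 0.36 and 1.01 ± 0.30 (0.0752), did not pass. Germ line markers summed to 4304 and 3594 CPM in mir-83 day 4 and to 1881 and 1516 in N2 day 4, and 5 of 10 of them rose by the same test; their part in the balance of the copies was not tested.

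**Figure D5:**
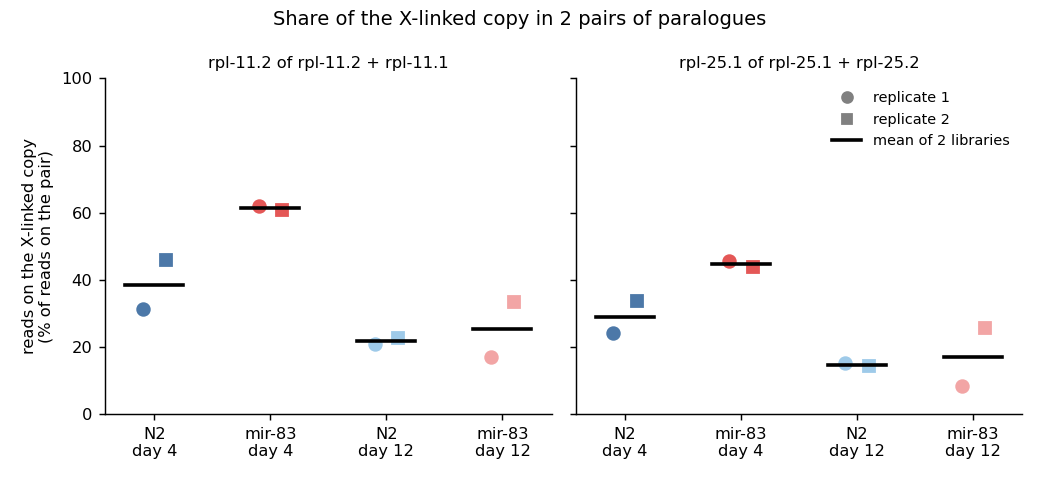
Share of reads on the X-linked copy (in % of reads on the pair) for rpl-11.2 with rpl-11.1 (left) and rpl-25.1 with rpl-25.2 (right) in each library; circles are replicate 1, squares replicate 2 and bars the mean of 2. The mir-83 day 4 libraries are highest, at 61.94% and 60.76% on the left and 45.79% and 43.93% on the right.

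Replicates 1 and 2, deposited in separate sheets, differed in the same way in several groups. In replicate 2, 45 members were higher than in replicate 1 in all 4 groups, and 4 were lower in all 4. Those 4 were rpl-37, rpl-38, rps-20 and rps-29, chosen after their values were seen, and 3 of them have under 400 bases of exon. For rps-29 the levels were 1242 and 589 CPM in N2 day 4 and 3477 and 1393 in mir-83 day 4, so replicates differed by more than 2-fold while the genotypes still did not overlap (1.37 ± 0.28, edgeR adjusted p = 0.0318). Members under 400 bases had a median of 0.92 in the day 4 comparison, those of 400 to 700 bases 1.15 and longer ones 1.25. Across the 79 members, the rank correlation of exon length with the log2 fold change was 0.33 in that comparison, -0.38 at day 12, 0.50 for age in N2, -0.15 for age in mir-83 and -0.35 for the interaction. Over all genes tested it was 0.14 in the day 4 comparison and 0.28 for age in N2. These are given as a description because genes of the same libraries are not independent.

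For 7 members, the sheets list a transcript without an open reading frame beside the coding one: rpl-1, rpl-3, rpl-12, rpl-13, rpl-22, rpl-30 and rps-23. Such transcripts of rpl-3 and rpl-12 are the kind that nonsense-mediated decay degrades in worms. For rpl-12 this transcript took 6.59% (N2) and 7.39% (mir-83) of the gene's reads at day 4 in replicate 1, and 5.95% and 6.14% at day 12. In replicate 2 the same shares were 18.23% and 22.71%, then 19.41% and 20.94%, in each case slightly higher in mir-83. For rpl-3 the shares lay between 9.23% and 12.7% in all 8 libraries with no common order of the genotypes. The shares of rpl-1, named rpl-10a in RefSeq, were 10.09% to 10.94% in replicate 1 and 28.06% to 29.18% in replicate 2. They were higher in mir-83 at both ages in replicate 1 and lower at both in replicate 2. For rpl-1 and rpl-12 the shares differed more between the sheets than between strains or ages. The sources used here do not state how reads were divided among isoforms.

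Genes that work with the ribosome were compared from lists chosen with earlier results of these data known. The shares of all genes to set beside them at day 4 were 4.42% higher and 2.63% lower. At day 4, ubl-1, which encodes a ubiquitin-like domain fused to a small subunit protein, rose by 1.54 ± 0.26 (edgeR adjusted p = 0.0237). The gene rack-1, a scaffold on the small subunit, rose by 1.70 ± 0.34 (0.0304). The fusion gene of the large subunit, ubq-2, was at 0.97 ± 0.26 (0.0627). Of 8 elongation and release factors, 4 rose: eef-2, which moves the ribosome along the message, by 1.77 ± 0.30, eef-1A.1 by 1.35, eef-1B.1 by 1.23 and eef-1B.2 by 1.00. Neither release factor passed, with erfa-1 at 0.02 ± 0.22 and erfa-3 at 0.44 ± 0.27. Of 26 initiation factors, 4 rose and 0 fell, with a median of 0.61. The largest of these was ife-3, a cap-binding protein, at 1.72 ± 0.29, followed by eif-3.B at 1.54 ± 0.29, eif-6, which keeps the large subunit from joining too early, at 1.41 ± 0.24, and eif-3.I at 1.28 ± 0.28.

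For ribosome assembly and mitochondrial ribosomal genes the day 4 medians lay near 0. Of 23 nucleolar and assembly genes, 5 rose and 1 fell, with a median of -0.16, where 4.42% of all genes rose and 2.63% fell. The 5 held fib-1, the nucleolar fibrillarin, at 1.45 ± 0.29, nol-56, its partner in box C/D particles, at 1.80 ± 0.32, and ncl-1, a repressor of nucleolar size, at 2.16 ± 0.27 (edgeR adjusted p = 0.0211). The others were rpoa-1, of RNA polymerase I, at 1.25 ± 0.30 and cif-1 at 1.22 ± 0.28. The gene cif-1 is counted in this list and not with the initiation factors, although known as a shared subunit of initiation factor eIF3 and the signalosome. Of 69 mitochondrial ribosomal protein genes, 1 rose and the median was 0.01, near the -0.14 of all genes. Growth signalling genes upstream of ribosome synthesis had 1 of 10 higher, aak-2, the energy sensor AMP kinase (1.52 ± 0.31), while let-363, the worm TOR kinase, was at -0.32 ± 0.23 and rsks-1, the S6 kinase, at 0.42 ± 0.23. Of 7 genes of nonsense-mediated decay, 0 passed by edgeR, 1 had an unadjusted p under 0.05 and the median was -0.24.

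With age in mir-83, 3 of 3 ribosome partners and 6 of 8 elongation and release factors fell, the elongation list with a median of -1.38. In the same comparison 11 of 23 nucleolar and assembly genes rose and 3 fell, with a median of 0.81, opposite in sign to the members' -1.50. The 3 that fell were fib-1 (-1.56 ± 0.29), nol-56 (-1.27 ± 0.32) and ncl-1 (-1.30 ± 0.26), while grwd-1 (1.89 ± 0.37) and rpoa-2, a subunit of RNA polymerase I (1.79 ± 0.29), rose. Mitochondrial ribosomal genes showed 8 of 69 higher and 4 lower, with a median of 0.26, and 4 of 7 decay genes rose. Of all genes tested, 12.8% rose and 15.2% fell in this comparison. In N2, no elongation factor passed with age, while 5 of 23 nucleolar and assembly genes rose and 0 fell, with a median of 0.94. There 2.11% of all genes rose and 2.4% fell.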

How the data were processed

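RNA-seq libraries of whole worms were analysed from raw read counts per transcript, deposited by the authors as 1 sheet per replicate number. The submitters' processing notes name Bowtie2, edgeR and the build ce11 and give no version or role; trimming, counting, use of strand and the handling of isoforms are not stated in the sources used here. Transcripts were matched to WormBase genes of WBcel235, the assembly that ce11 names, and summed per gene. Left out for want of a match were 215 transcripts of the first sheet (0.091% of its reads) and 276 of the second (0.242%). Genes in both sheets were kept.

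TMM factors scaled the counts, and filterByExpr kept 15843 genes, among them all 79 members. Tests used edgeR 4.0.16 (glmQLFit, glmQLFTest) fitted to the 8 libraries together, with a mean for each group and a block for replicate number, because a number also marks a sheet; 3 residual degrees of freedom remained and the common biological coefficient of variation was 0.429. After subtracting group means, libraries with the same number correlated across genes at 0.118 to 0.415 in the 6 group pairs. A shared sheet alone could give such values, so they cannot show whether libraries of a number share anything more. The number was kept as a block for the sheet. P-values are two-sided and Benjamini-Hochberg adjusted over all genes, with a threshold of 0.05, and standard errors come from the F statistic. The fit was tested on simulated data.

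Levels are TMM-scaled CPM, per kilobase of exon where genes are compared. Exon length merges the exons of all annotated transcripts of a gene, coding or not. The members and lists were chosen with earlier results of these data known. Genes named are up to 10 members per direction with the smallest p past the threshold and the same direction in both replicates; where fewer than 5 passed, the 5 with the smallest p; a fixed set of stalk, paralogous, splice-regulated and S6 genes; the 3 highest and 3 lowest per length; and the 3 farthest against the members' median. Alternatives were other scalings (RLE, plain library sizes, TMM without the members), no filter, no or another block, fits to only the 4 libraries compared, leaving out 1 library at a time, DESeq2 1.42.0, stricter thresholds, 1 transcript per gene and other denominators of the read share; leaving out libraries, 1 transcript per gene and a paired exact test were added for the paralogue ratios after seeing the data. R 4.3.3 and Python 3.11.15 were used. Intervals cover counting error only.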

Additional observations from a re-analysis of the deposited data

Results flagged for a closer look

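The genes rpl-41.1 and rpl-41.2, which encode the smallest protein of the large subunit, had reads in the sheet of replicate 1 alone and entered no test, so the values that follow have no replicate. In mir-83 day 12 replicate 1, rpl-41.1 stood at 152 CPM and rpl-41.2 at 1160, above the 117 and 650 of N2 day 12 replicate 1. At day 4 mir-83 had 92 and 1120 CPM, below 195 and 1990 in N2. These values are read counts scaled to plain library sizes (CPM). With TMM factors the day 12 order was the same, with 127 and 964 CPM in mir-83 and 101 and 562 in N2. At day 4 that scale kept rpl-41.1 lower in mir-83 (143 against 168), while the order of rpl-41.2 turned, with 1730 in mir-83 and 1720 in N2.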

How the results depend on the processing

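With edgeR and an adjusted p under 0.05, 37 members (46.8%) passed for mir-83 against N2 at day 4, where 7.05% of all genes did. The count was 0 at an adjusted p under 0.01 (0% of all genes) and 10 on plain library sizes (12.7%, against 25.4% of all genes). It was 62 with only the 4 libraries compared, where 34.3% of all genes passed, and 57 with DESeq2 (72.2%, against 16.6%). Leaving out any 1 of the 4 day 4 libraries removed the calls among members and nearly all of those over all genes. The members' median then lay between 1.06 and 1.28. For age in mir-83, where 70 passed, the count was 44 under 0.01 and 31 on plain library sizes, and 17 to 71 leaving out 1 library. Of all genes, 27.9% passed for age in mir-83, with 8.21% under 0.01 and 43.5% on plain library sizes. On plain library sizes the members' share, 39.2%, was thus below that of all genes. For age in N2, 0 members and 4.51% of all genes passed. The count was 2 without the filter (5.87% of all genes) and 4 with the replicate block within age (14.4% of all genes). It was 1 with only the 4 libraries compared (9.43% of all genes) and 5 with DESeq2 (20.3% of all genes). Leaving out 1 library put the members' median between -0.58 and -0.25. For the interaction, where 0 passed, it was 2 on plain library sizes, 7 without the filter and 21 with DESeq2, and 0 to 9 leaving out 1 library. At day 12 the count of 0 stood under all 19 alternatives.

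Without the replicate block, 1 member passed at day 4, against 37 with it. Of all genes 2.03% passed without the block and 7.05% with it. For age in mir-83, 61 members passed without the block, where 23.3% of all genes did. The block left the counts of 0 in the other 3 comparisons as they were.

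The members' median kept its sign under every alternative run at day 4, for age in both strains and for the interaction; at day 12 it lay between -0.18 and 0.26. Taken gene by gene over these alternatives, the named genes past the threshold lost their call 94 times at day 4 and 54 times for age in mir-83, and no call changed direction. With 2 libraries per group and 3 residual degrees of freedom, where an arm of 1 library is left it is assumed to vary like the other groups. The causes of these changes were not tested.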
